A study of Mus musculus with 12 samples.

Results

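The DNA synthesis genes described here are 48 genes that act at chromosomal replication after the MCM helicase has been loaded onto DNA, or that mark the origins and supply the deoxynucleotides. They comprise the origin recognition complex, the factors that fire an origin together with geminin, the replicative polymerases with primase, the sliding clamp and its loader, the single-strand binding complex RPA, Okazaki fragment enzymes, fork protection factors, chromatin assembly factor 1 and enzymes of deoxynucleotide synthesis. The list was set by the roles of the genes and its rule used no measured value, but it was drawn up with earlier results of these data known. The genes were found in the count table through the symbols of its gene identifiers. All 48 were among its 55335 genes, and all 48 were among the 18234 genes that passed the filter on low counts, with 477 to 33002 counts per gene and summed sample. In HSCs without *Ythdc1*, 46 of the 48 were higher than in wild type HSCs, against 48.9% of all tested genes, by amounts of at most 1.46-fold, and none passed the test across all genes.

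The study deleted *Ythdc1*, which encodes a nuclear reader of N6-methyladenosine in RNA, in mice and sequenced polyadenylated RNA of sorted bone marrow HSCs. The *Ythdc1*Δ/Δ group came from *Ythdc1* fl/fl Mx1-Cre mice and the *Ythdc1*+/+ group from mice with wild type *Ythdc1* alleles, which also carried Mx1-Cre, and the study describes 5 injections of 300 µg of pIpC for both. pIpC induces interferon, and Mx1-Cre is an interferon-inducible recombinase that is not confined to HSCs, so both genotypes share the exposure to pIpC, interferon and the recombinase. The labels give C57B6 as the strain, and the methods an age of 8 weeks for donor mice. The 12 libraries, 6 per genotype, carry 6 numbers with 2 libraries each. The *Ythdc1*Δ/Δ samples are named KO176, KO177 and KO209, and the *Ythdc1*+/+ samples WT178, WT180 and WT207. Both libraries of each number were added up, leaving 3 samples for each genotype. Nothing in the labels ties a number to a separate animal, and the p-values therefore reflect the spread between these samples alone, some of which may be technical. The labels call the cells HSC and name no sorting gate.

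An origin is first bound by the origin recognition complex, on which the MCM helicase is loaded before S phase. The kinases CDC7-DBF4 and cyclin E-CDK2 then help to turn the loaded helicase into an active one with CDC45 and GINS, and polymerases alpha, delta and epsilon copy the strands with PCNA, RFC and RPA while ribonucleotide reductase and its partner enzymes supply the precursors. Most adult HSCs are quiescent, many of these genes are transcribed under E2F factors when a cell enters S phase, and interferon is known to push HSCs into the cell cycle.

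Library totals ranged from 20809936 to 24563170 counts in genes, and summed samples from 42098649 to 48095239. *Ythdc1* mRNA was at 56.8 to 69.6 CPM (counts of a gene relative to the TMM-scaled total of its sample) in *Ythdc1*Δ/Δ and at 72.6 to 92.5 CPM in *Ythdc1*+/+ samples. The log2 fold change was -0.30 (adjusted p = 0.521 in edgeR). The counts are totals over the gene's annotated exons, with none for the deleted part alone, so this level is no check of the labels. The paper examined the knockout at the protein level, by western blot in stem and progenitor cells and immunofluorescence in long-term HSCs. What the size of the mRNA difference reflects was not tested. Among HSC markers, 9 of 10 had a lower level in *Ythdc1*Δ/Δ and 1 was higher, with a summed level of 794 to 894 CPM in *Ythdc1*Δ/Δ against 977 to 1141 CPM in *Ythdc1*+/+ samples, and none of the 10 was at 0 in all samples. Of 16 myeloid progenitor and granulocyte markers 16 were higher (13284 to 25106 CPM in *Ythdc1*Δ/Δ against 11190 to 14456 CPM in *Ythdc1*+/+ samples), of 11 B-lineage markers 10 (2763 to 6427 CPM in *Ythdc1*Δ/Δ against 1068 to 1663 CPM in *Ythdc1*+/+ samples), of 6 macrophage markers 5 (40.5 to 48.7 CPM in *Ythdc1*Δ/Δ against 22.5 to 35.3 CPM in *Ythdc1*+/+ samples), and of 9 stromal and endothelial markers tested 8 (112 to 125 CPM in *Ythdc1*Δ/Δ against 82.3 to 98.6 CPM in *Ythdc1*+/+ samples), of which 3 passed the test. That last sum is mostly *Pecam1*, and the stromal and endothelial list had a median log2 fold change of 1.43, up to 3.16 for *Adipoq* (mean 2.70 against 0.297 CPM), while the chemokine gene *Cxcl12* had means of 15.5 and 3.45 CPM and did not pass the adjusted p. All 3 multipotent progenitor markers and 7 of 10 erythroid markers were higher, and all 5 megakaryocyte markers tested and 3 of 4 T and NK cell markers were lower. The summed erythroid level went the other way, at 833 to 1421 CPM in *Ythdc1*Δ/Δ against 1529 to 1756 CPM in *Ythdc1*+/+ samples. That sum is mostly *Car2*, which was lower in every *Ythdc1*Δ/Δ sample (mean 1088 against 1562 CPM). No gene of these lists was at 0 in all samples. Of all tested genes, 48.9% were higher in *Ythdc1*Δ/Δ and 0.137% passed the test in either direction. The directions held for the megakaryocyte, myeloid, B-lineage, macrophage and stromal lists under all 4 scalings of the samples, while with library totals alone all 10 HSC markers were lower, 2 of the 3 multipotent progenitor markers were higher and the erythroid markers were split 5 to 5. The methods describe enrichment on CD117 beads before the sort and a lineage cocktail against CD11b, Gr1, CD4, CD8, Ter119 and B220, which is meant to remove mature myeloid, B, T and erythroid cells but holds no stromal or endothelial marker. In sorted bulk RNA, more cells of a type and more RNA per cell cannot be told apart, and the part of these other markers in the results on the replication genes was not tested.

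Sequences upstream of the transcription start were examined because E2F factors are the classical regulators of this gene set. Promoter windows of 300 bases, 250 before the start and 50 after it, came from RefSeq on GRCm38.p6 and were found for 38 of the 48 genes; *Gins1*, *Gins2*, *Gins4*, *Ccne2*, *Gmnn*, *Prim2*, *Pole*, *Rfc2*, *Rnaseh2b* and *Tipin* had no entry in the table. The E2F letters TTTCCCGC, TTTGGCGC, TTTCGCGC and TTTGCCGC were searched on both strands, where matches on opposite strands can overlap. They occurred in windows of 10 of the 38 genes (26.3%), against 704 of 27025 genes with a window (2.6%). These 10 were *Orc1*, *Orc3*, *Gins3*, *Pola1*, *Pold1*, *Pold3*, *Pole2*, *Rfc3*, *Lig1* and *Clspn*. The letters CCAAT of the NF-Y box were found in 19 of 38 genes (50%) against 41.1% of all genes, and TTTGAA of the CHR element in 6 of 38 (15.8%) against 20.2%. The windows of 4 genes, from 250 bases before the start to 30 after it, are given to set members with and without the letters side by side: *Orc1* and *Rfc3* hold E2F letters and were higher in every *Ythdc1*Δ/Δ sample, *Pole2* holds them and hardly differed between the genotypes, and *Rrm1*, the gene with the smallest p, holds none of them. Capitals mark the E2F letters and CCAAT, read on either strand.
Orc1, chr4:108579204-108579483, plus strand: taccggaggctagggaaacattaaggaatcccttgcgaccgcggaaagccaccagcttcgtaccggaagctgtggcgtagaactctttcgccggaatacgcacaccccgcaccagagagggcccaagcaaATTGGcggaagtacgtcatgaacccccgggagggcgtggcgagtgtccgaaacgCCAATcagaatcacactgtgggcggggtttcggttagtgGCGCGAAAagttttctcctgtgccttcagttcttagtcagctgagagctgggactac
Rfc3, chr5:151651179-151651458, minus strand: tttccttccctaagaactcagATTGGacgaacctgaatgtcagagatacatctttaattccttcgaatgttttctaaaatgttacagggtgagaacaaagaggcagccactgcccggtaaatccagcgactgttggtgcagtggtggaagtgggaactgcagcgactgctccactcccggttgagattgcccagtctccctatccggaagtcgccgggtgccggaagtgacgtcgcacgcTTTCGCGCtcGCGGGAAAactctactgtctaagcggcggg
Pole2, chr12:69228161-69228440, minus strand: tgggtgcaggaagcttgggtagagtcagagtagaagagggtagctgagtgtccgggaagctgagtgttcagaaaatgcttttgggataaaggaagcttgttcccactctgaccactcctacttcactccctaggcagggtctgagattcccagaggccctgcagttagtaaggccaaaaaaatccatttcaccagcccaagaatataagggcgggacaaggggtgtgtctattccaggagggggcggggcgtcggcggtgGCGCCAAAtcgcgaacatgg
Rrm1, chr7:102441445-102441724, plus strand: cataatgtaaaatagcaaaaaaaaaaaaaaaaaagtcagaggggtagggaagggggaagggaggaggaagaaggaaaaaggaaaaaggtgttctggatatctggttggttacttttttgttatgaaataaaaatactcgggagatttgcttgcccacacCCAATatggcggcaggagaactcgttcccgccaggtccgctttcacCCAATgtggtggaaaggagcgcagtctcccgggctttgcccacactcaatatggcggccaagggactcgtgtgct
Counting the first transcribed base as 1, the E2F letters began at -27 in *Orc1*, at -10 and 1 in *Rfc3* and at 11 in *Pole2*, and the CCAAT boxes of *Rrm1* at -91 and -45. A match is a description of letters and not of a bound site. Only exact matches were counted, so a window without them can hold close variants, such as GTTCCCGC in *Rrm1*. *Orc1* and *Rfc3* were the only 2 of the 10 genes with E2F letters in which every *Ythdc1*Δ/Δ sample lay above every *Ythdc1*+/+ sample. Of the 28 genes with a window but without the letters, 12 did so, against 7.75% of all tested genes.

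In *Ythdc1*+/+ samples the genes spanned a wide range of levels per length. The paper defines long-term HSCs as CD150+, CD48- and Flk2-, and the labels do not say whether that gate was used. Mean mRNA levels were 9.32 CPM for *Slamf1* (CD150), 297 CPM for *Cd48* and 363 CPM for *Flt3* (Flk2). HSC markers summed to 977 to 1141 CPM and myeloid markers to 11190 to 14456 CPM. The part of cells other than quiescent HSCs in the levels that follow was not tested. TPM (counts divided by exon length, relative to all genes of a sample) was highest for *Pcna*, the sliding clamp, at 485.7 ± 12.4 (SD, n = 3), and its samples lay above those of every other member. *Dut*, which removes dUTP, had 340.2 ± 6.56 TPM, *Tipin* 324.4 ± 46.2 TPM and *Pold2* 317.8 ± 5.79 TPM (SD, n = 3 each), and *Tipin* overlapped both of its neighbours in this order. At the lower end *Fen1* stood at 13.1 ± 1.70 TPM, *Dbf4* at 11.5 ± 0.153 TPM, *Clspn* at 11.4 ± 2.08 TPM, *Orc1* at 10.6 ± 0.184 TPM and *Pole* at 9.23 ± 1.08 TPM (SD, n = 3 each). These lowest 5 were not separated from each other as neighbours. Over all 48 genes, 13 of the 47 neighbouring pairs had samples that did not overlap. The level of *Fen1* is uncertain, because 84.2% of its exon bases lie on exons of *Tmem258* and *Gm10143* on the other strand, and counting without strand cannot assign such reads. The same holds for *Gins2* (67.3% shared with *Gse1*), *Chaf1a* (52.5% with *Ubxn6*) and *Orc2* (29.8% with *Nif3l1*), and no other member shared over 20% of its exon bases with another gene.

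**Figure D1:**
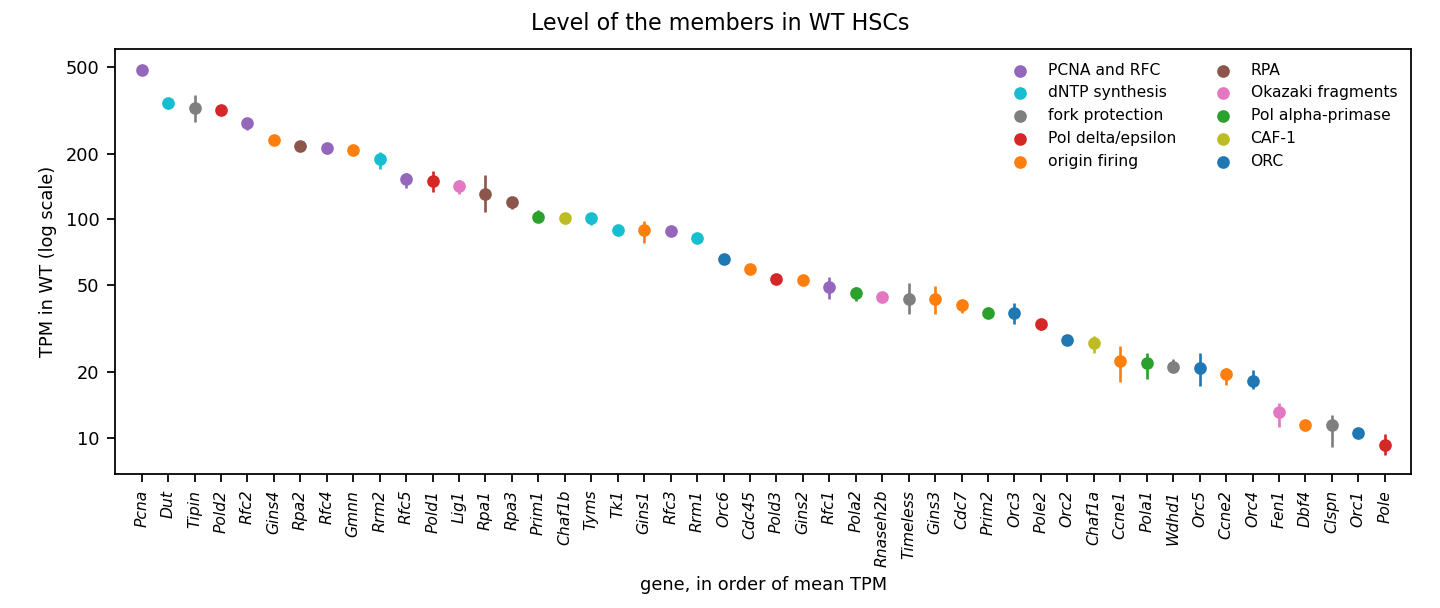
Mean TPM (vertical axis, log scale) of the 48 genes in the 3 WT samples, in falling order (horizontal axis), coloured by subgroup. Points are means and lines run from the lowest to the highest sample, and *Pcna* stands apart at 485.7 while *Pole* is lowest at 9.23.

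The comparison of genotypes asked whether the replication genes differ in HSCs without *Ythdc1*. Of the 48 genes, 46 (43 with library totals alone) had a higher level in *Ythdc1*Δ/Δ than in *Ythdc1*+/+ HSCs, where 48.9% of all 18234 tested genes did, and the median log2 fold change (*Ythdc1*Δ/Δ minus *Ythdc1*+/+) was 0.21 against -0.0062 for all tested genes. None of the 48 passed an adjusted p of 0.05 in edgeR's quasi-likelihood test, which called 25 genes in all (0.137%), and the members' adjusted p ran from 0.270 to 0.988. At an unadjusted p under 0.05, 12 members were higher and 0 were lower, against 4.28% of all genes that were higher at that p. In 17 members every *Ythdc1*Δ/Δ sample lay above every *Ythdc1*+/+ sample, against 7.75% of all genes. Highly expressed genes leaned the same way but less: of the 9130 genes at 10 CPM or more, 56.4% were higher and 10.3% had no overlap, with a median of 0.03. The differences were small. The largest was that of *Rrm2*, 1.46-fold, and the genes below 0 were *Orc5* (-0.01) and *Chaf1b* (-0.01).

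**Figure D2:**
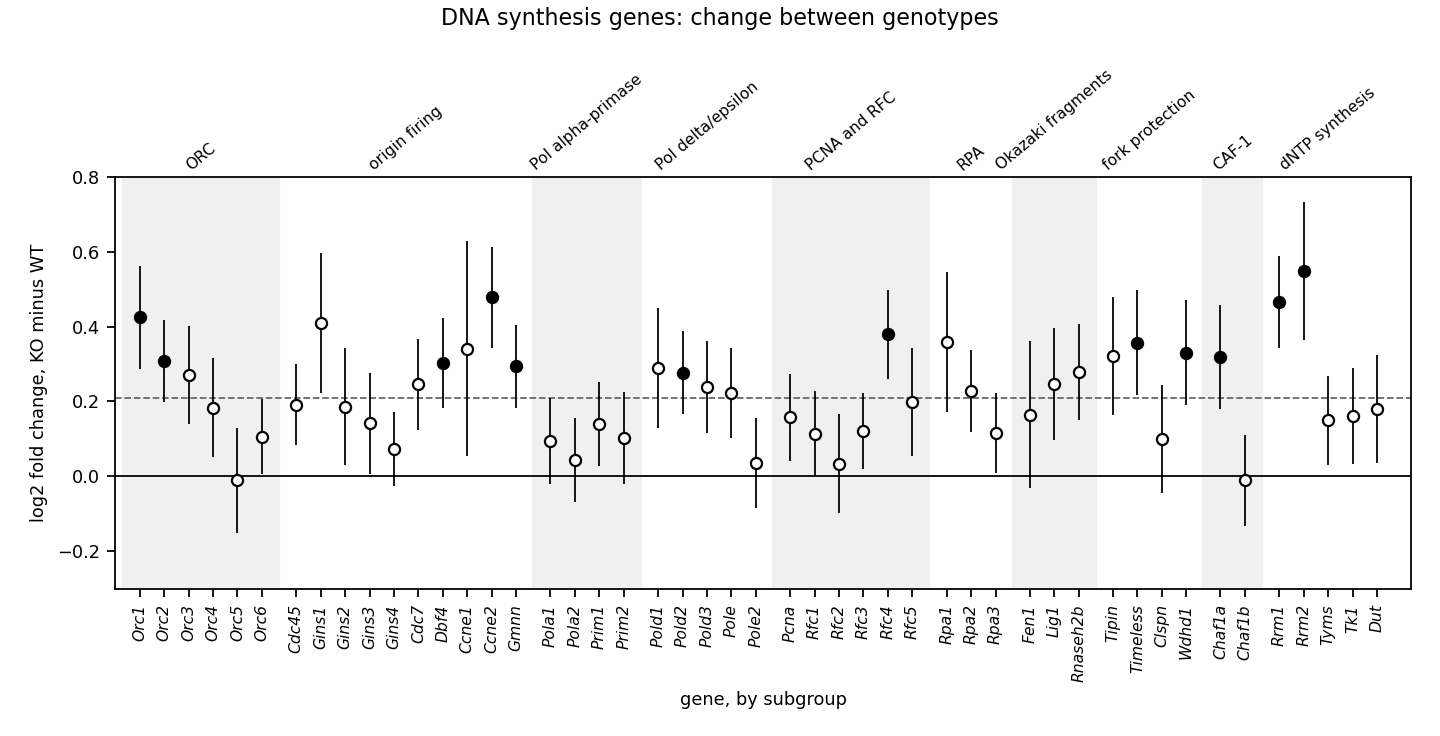
Log2 fold change of KO (*Ythdc1*Δ/Δ) minus WT (*Ythdc1*+/+) for each of the 48 genes (vertical axis), grouped by subgroup (horizontal axis), with the standard error as bars. Filled points have an unadjusted p under 0.05 (12 genes), the dashed line is the median of 0.21, and 46 of 48 points are above 0.

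The count at an unadjusted p under 0.05 depended on single samples. It was 7 without KO176, 4 without WT207 and 23 without KO209, against 12 with all samples, and the share of all genes higher at that p moved the same way, to 3.09%, 2.74% and 7.78%. It was 9 without KO177 (3.67% of all genes), 10 without WT178 (3.08%) and 10 without WT180 (3.47%), and in each of these fits no member was lower at that p. When the 12 libraries were treated as separate samples, which counts both libraries of a number as replicates, 4.83% of all genes and 10 members passed the adjusted p (*Ccne2*, *Dbf4*, *Gmnn*, *Orc1*, *Orc2*, *Pold2*, *Rfc4*, *Rrm1*, *Rrm2* and *Timeless*), and DESeq2 on the summed samples called 1.21% of all genes and, of the members, *Rrm1* alone.

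Deoxynucleotide synthesis held the gene with the smallest p and the gene with the largest fold. *Rrm1*, the large subunit of ribonucleotide reductase at chr7:102441695-102469771 (mm10, the build of all gene positions here), had 516, 429 and 445 CPM in KO176, KO177 and KO209 and 350.3, 333 and 323 CPM in WT178, WT180 and WT207. Every *Ythdc1*Δ/Δ sample was above every *Ythdc1*+/+ sample, and the log2 fold change was 0.47 (SE, standard error of the fit, 0.12, adjusted p = 0.270 in edgeR). The libraries of KO177 were unlike each other, at 497 and 358 CPM, and the lower one came close to the highest *Ythdc1*+/+ library at 355 CPM. *Rrm2*, the small subunit whose level limits the enzyme in S phase, lies at chr12:24708241-24714146 and had 378, 242 and 232 CPM in the same order of *Ythdc1*Δ/Δ samples and 214, 180.03 and 189 CPM in *Ythdc1*+/+. KO176 stood far above the others, the groups did not overlap, and the log2 fold change was 0.55 (SE 0.19, adjusted p = 0.373 in edgeR). *Dut* had 397, 356 and 277 CPM against 304, 312 and 293 CPM. Its groups overlapped, with KO209 the lowest of the 6 samples, and the log2 fold change was 0.18 (SE 0.14). *Tyms*, thymidylate synthase, and *Tk1*, the cytosolic thymidine kinase, differed by 0.15 and 0.16 on the log2 scale, and their groups overlapped.

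Among the factors that fire origins, listed together with geminin, all 10 were higher (48.9% of all tested genes). Of these, 6 had groups that did not overlap (7.75% of all tested genes). *Ccne2* encodes the cyclin E2 partner of CDK2 at chr4:11191351-11204779 and had 35.8, 29.9 and 39.7 CPM in *Ythdc1*Δ/Δ against 26.9, 23.3 and 25.5 CPM in *Ythdc1*+/+. All 3 *Ythdc1*Δ/Δ samples exceeded all *Ythdc1*+/+ samples, here with KO209 highest, and the log2 fold change was 0.48 (SE 0.13, adjusted p = 0.291 in edgeR). *Dbf4*, the activating subunit of the CDC7 kinase at chr5:8396973-8422716, had 52.1, 43.5 and 41.4 CPM against 38.1, 37.5 and 35.4 CPM. *Gmnn* encodes geminin, which blocks renewed licensing in S phase, lies at chr13:24751845-24761923 and had 150.0, 135 and 131 CPM against 119, 116 and 104 CPM. Neither gene's groups overlapped, and the log2 fold changes were 0.30 (SE 0.12) and 0.29 (SE 0.11). *Gins4*, a GINS subunit, had the largest p of this group, with 122, 122 and 121 CPM against 117, 116 and 114 CPM. Its samples varied so little that the groups did not overlap at a log2 fold change of only 0.07 (SE 0.10). Of the other GINS genes *Gins1* differed by 0.41, *Gins2* by 0.19 and *Gins3* by 0.14 on the log2 scale, each with overlapping groups. *Cdc45* (0.19) and *Cdc7* (0.25) had no overlap. *Ccne1*, cyclin E1, was 1.27-fold higher, with KO176 at 41.1 CPM, while its other *Ythdc1*Δ/Δ samples were at 22.4 and 20.6 CPM and the *Ythdc1*+/+ samples at 23.0, 26.5 and 16.8 CPM. Without KO176 the sign of *Ccne1* turned to -0.03.

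The origin recognition complex was uneven. *Orc1*, its cell-cycle regulated subunit at chr4:108579423-108614833, had 20.6, 17.7 and 16.4 CPM in *Ythdc1*Δ/Δ and 14.1, 13.7 and 12.9 CPM in *Ythdc1*+/+ samples. *Orc2*, a core subunit at chr1:58462771-58505109, had 53.1, 49.3 and 45.6 CPM and 41.7, 39.9 and 37.9 CPM. The groups of both genes stood apart, with KO176 highest and WT207 lowest in both, at log2 fold changes of 0.42 (SE 0.14) and 0.31 (SE 0.11). The libraries of KO177 were apart in *Orc1* as well, at 21.02 and 14.3 CPM, the lower of them level with the highest *Ythdc1*+/+ library at 14.3 CPM. *Orc5* had 48.2, 50.3 and 43.4 CPM against 56.8, 40.5 and 45.7 CPM. WT178 was its highest sample and WT180 its lowest, and its difference of -0.01 on the log2 scale (SE 0.14) changed sign when KO209 or WT178 was left out. *Orc3*, *Orc4* and *Orc6* differed by 0.27, 0.18 and 0.11 on the log2 scale, the last without overlap.

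In the clamp loader and polymerases delta and epsilon, *Rfc4* and *Pold2* were the members at an unadjusted p under 0.05. *Rfc4*, a small subunit of replication factor C at chr16:23113943-23127737, had 169.6, 152 and 149 CPM in *Ythdc1*Δ/Δ against 126, 129 and 107 CPM in *Ythdc1*+/+ samples. Its groups were separate, with a log2 fold change of 0.38 (SE 0.12, adjusted p = 0.338 in edgeR). *Rfc2*, another small subunit, had 674, 707 and 608 CPM against 689, 685 and 569 CPM, and its groups overlapped with KO209 and WT207 the lowest of their genotypes (log2 fold change 0.03, SE 0.13). *Pcna* (0.16) and *Rfc3* (0.12) had no overlap, and *Rfc1* (0.11) and *Rfc5* (0.20) did. *Pold2*, the accessory subunit of polymerase delta at chr11:5872180-5878292, had 282, 267 and 261 CPM against 232, 229 and 208 CPM. It lay higher in each *Ythdc1*Δ/Δ sample, by 0.28 on the log2 scale (SE 0.11). *Pole2*, of polymerase epsilon, had 40.1, 36.3 and 32.1 CPM against 36.7, 34.2 and 34.9 CPM. Its *Ythdc1*Δ/Δ samples enclosed the *Ythdc1*+/+ samples, with a log2 fold change of 0.04 (SE 0.12). The catalytic subunits *Pold1* (0.29) and *Pole* (0.22) and the delta subunit *Pold3* (0.24) had overlapping groups.

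Polymerase alpha and primase, which start each strand, had the lowest subgroup median, a log2 fold change of 0.10, and no gene without overlap. *Prim1*, the catalytic primase subunit, had 167, 160.2 and 159.7 CPM in *Ythdc1*Δ/Δ against 161, 146 and 135 CPM in *Ythdc1*+/+ samples. *Pola2*, the B subunit, had 147, 154 and 136 CPM against 153, 133 and 138 CPM. In *Prim1* WT178, and in *Pola2* WT178 and WT207, reached into the range of the *Ythdc1*Δ/Δ samples, and the log2 fold changes were 0.14 (SE 0.11) and 0.04 (SE 0.11). *Pola1*, the catalytic subunit, and *Prim2* differed by 0.09 and 0.10 on the log2 scale. Whether this subgroup differs from the others was not tested.

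RPA covers unwound single strands. *Rpa2* had 288, 275 and 286 CPM in *Ythdc1*Δ/Δ and 251, 249.6 and 224 CPM in *Ythdc1*+/+ samples. Its groups did not overlap, with a log2 fold change of 0.23 (SE 0.11). *Rpa3* had 52.1, 58.2 and 54.3 CPM against 54.2, 48.3 and 49.6 CPM, with overlap (0.11 on the log2 scale, SE 0.11), and *Rpa1* differed by 0.36, also with overlap. Of the enzymes that finish Okazaki fragments or remove ribonucleotides, *Rnaseh2b*, a subunit of RNase H2, had 143, 120.0 and 108 CPM against 100.5, 109 and 96.1 CPM. Only KO209 and WT180 crossed, and the log2 fold change was 0.28 (SE 0.13). The flap nuclease gene *Fen1* had 16.1, 13.7 and 9.64 CPM against 13.2, 10.3 and 11.6 CPM in the counts that could be assigned. KO209 was its lowest sample and KO176 its highest, and the log2 fold change was 0.16 (SE 0.20). *Lig1*, the ligase of these fragments, differed by 0.25 with overlapping groups.

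Fork protection and coupling factors had the highest subgroup median, 0.33. *Timeless*, which keeps polymerase and helicase together, lies at chr10:128232065-128252941 and had 132, 125 and 120.0 CPM in *Ythdc1*Δ/Δ against 85.0, 119 and 89.8 CPM in *Ythdc1*+/+ samples. The groups just failed to overlap, since WT180 came close to KO209 while WT178 and WT207 were far lower (log2 fold change 0.36, SE 0.14). *Wdhd1*, which links the helicase to polymerase alpha and lies at chr14:47240944-47276857, had 72.2, 60.6 and 83.0 CPM against 55.7, 64.2 and 51.7 CPM. KO177 fell below WT180, so its groups overlapped at a log2 fold change of 0.33 (SE 0.14). *Clspn*, which encodes the checkpoint mediator claspin, had 35.0, 32.3 and 30.2 CPM against 24.5, 34.4 and 32.0 CPM. WT180 and WT207 lay in the range of the *Ythdc1*Δ/Δ samples and WT178 was far below all others, and its log2 fold change of 0.10 (SE 0.14) became -0.03 without WT178. *Tipin*, the partner of TIMELESS, differed by 0.32 with overlap. In chromatin assembly factor 1, which deposits histones behind the fork, *Chaf1a* at chr17:56040439-56072289 had 132, 105 and 95.4 CPM against 97.4, 82.0 and 87.1 CPM. KO209 lay below WT178, and the log2 fold change was 0.32 (SE 0.14). *Chaf1b* had 188, 174 and 162 CPM against 185, 187 and 156 CPM, fully interleaved, with -0.01 on the log2 scale (SE 0.12).

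**Figure D3:**
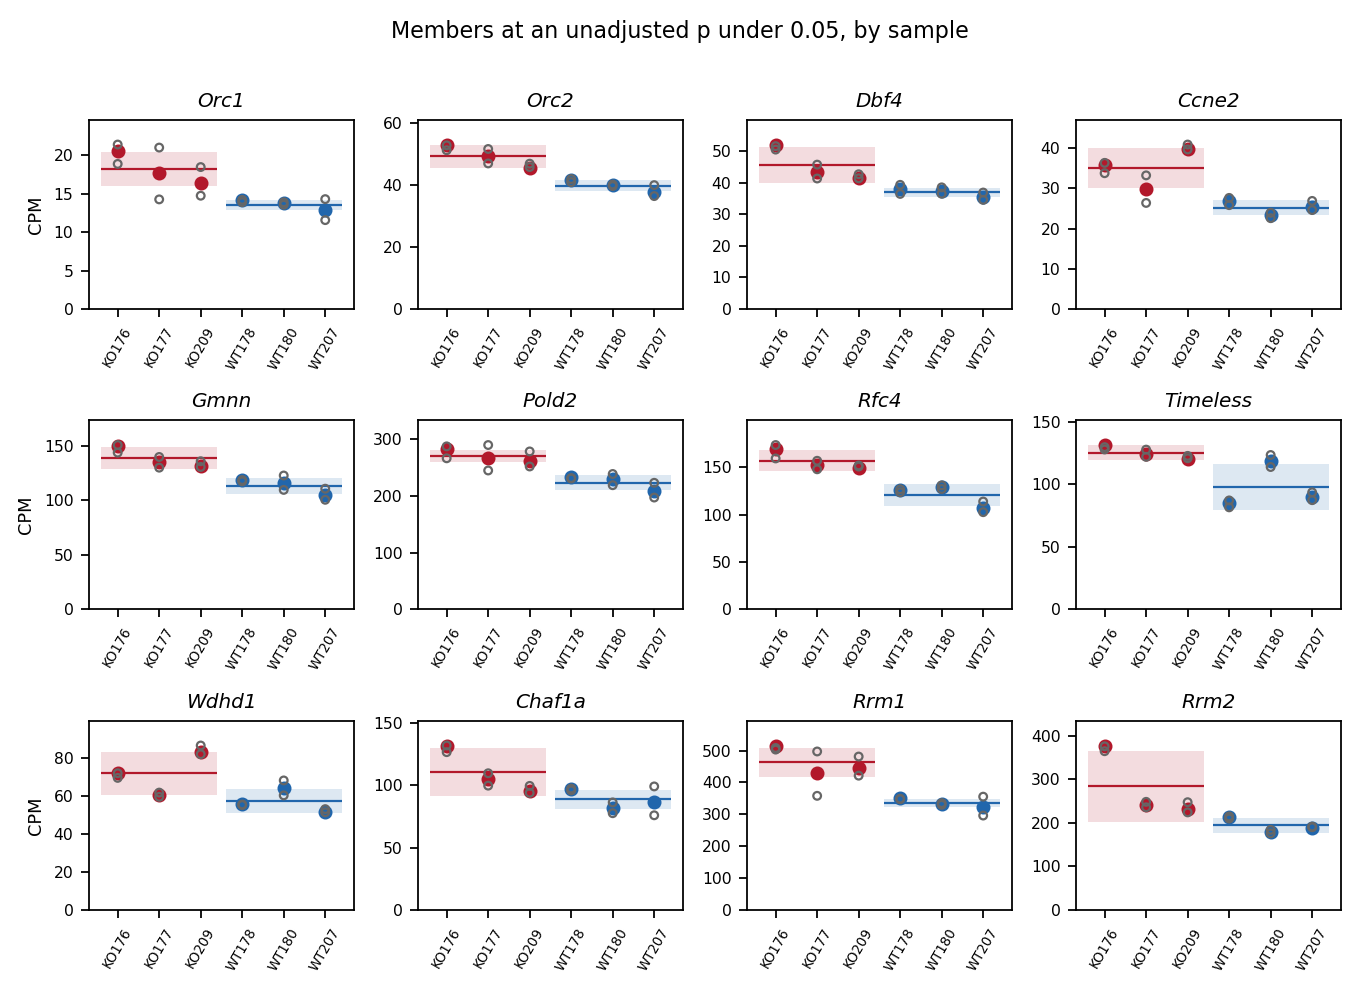
CPM (vertical axes, from 0) in the 6 summed samples (horizontal axes, filled points, KO red and WT blue) and in their libraries (open circles) for the 12 genes at an unadjusted p under 0.05. Lines are genotype means, bands are 1 SD over 3 samples, and the groups overlap in *Wdhd1* and *Chaf1a* only.

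The samples within a genotype were not alike. The mean of the 48 genes' log2 CPM, each centred on its mean over the 6 samples, was 0.25 in KO176, 0.08 in KO177 and -0.00116 in KO209, and -0.05 in WT178, -0.09 in WT180 and -0.19 in WT207. The genotypes did not overlap in this mean, but the gap between KO209 and WT178 was smaller than the distance between KO176 and KO177. By subgroup, they were apart only in origin firing, in the clamp with its loader and in deoxynucleotide synthesis. In every other subgroup at least 1 *Ythdc1*+/+ sample lay above a *Ythdc1*Δ/Δ sample, and KO209 was the lowest of the 6 samples for Okazaki fragment enzymes (-0.17). KO176 was the highest of the 6 samples in 36 members, where it was highest in 26.6% of all genes, and WT207 was the lowest in 26 members, where it was lowest in 16.2% of all genes. The summed level of the members was 8369 CPM in KO176, 7442 CPM in KO177 and 7008 CPM in KO209, and 6848, 6626 and 6088 CPM in WT178, WT180 and WT207. All 6 *Ythdc1*Δ/Δ libraries had a higher mean (0.01 to 0.24) than all 6 *Ythdc1*+/+ libraries (-0.18 to -0.04). The SD between the 2 libraries of a number had a median of 0.08 on the log2 scale and that between the numbers of a genotype 0.14, and the second was larger in 37 of the 48 genes.

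**Figure D4:**
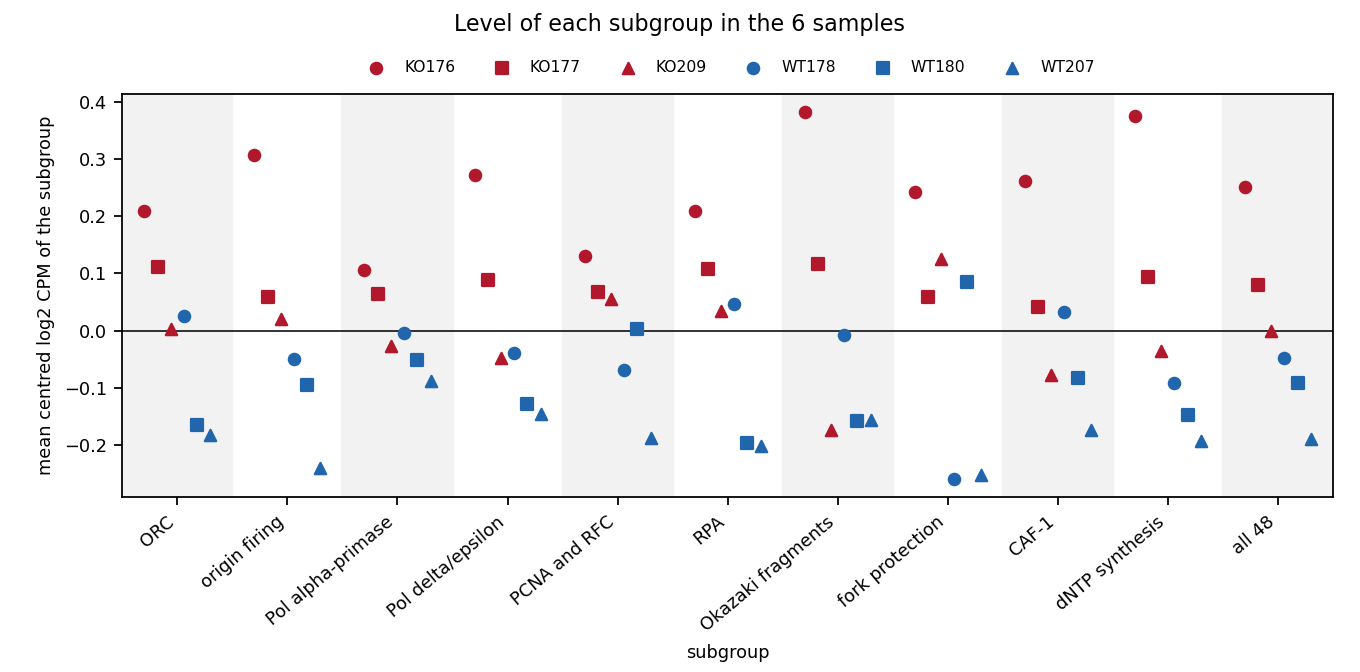
Mean centred log2 CPM (vertical axis) of each subgroup and of all 48 genes (horizontal axis) in the 6 samples (red KO, blue WT, 1 symbol per sample). KO176 is the highest sample in every subgroup, and for all 48 genes the samples run from 0.25 in KO176 to -0.19 in WT207. The genotypes are apart only for origin firing, PCNA and RFC, dNTP synthesis and all 48 genes.

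The order of the samples within a genotype depended on the scaling, whereas the order of the genotypes did not. With library totals alone the median of all tested genes moved to -0.15 in KO176 and to 0.12 in KO209 relative to the mean over samples, and the means of the members were 0.10 in KO176, 0.05 in KO177, 0.11 in KO209, -0.06 in WT178, -0.09 in WT180 and -0.11 in WT207. KO176 was then the highest sample in 21 members and KO209 in 20. The *Ythdc1*Δ/Δ samples still exceeded the *Ythdc1*+/+ samples, 43 of the 48 genes were higher, with *Pola2*, *Pole2* and *Rfc2* now below 0 besides *Orc5* and *Chaf1b*, the median log2 fold change was 0.16 against -0.05 for all genes, and 15 members had no overlap where 6.15% of all genes did. Myeloid markers took unequal shares of the libraries: *Mpo*, the granule enzyme myeloperoxidase, was at 10914 CPM in KO176, 5183 CPM in KO177 and 2222 CPM in KO209, and at 4775, 5388 and 2064 CPM in WT178, WT180 and WT207. The list of 16 myeloid markers had a mean centred log2 CPM of 0.65 in KO176 and between -0.34 and 0.01 in the other samples, and its part in the members' levels was not tested. Without KO176 and WT180, an alternative chosen after seeing the data, 42 of 48 members were higher with a median of 0.14.

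**Figure D5:**
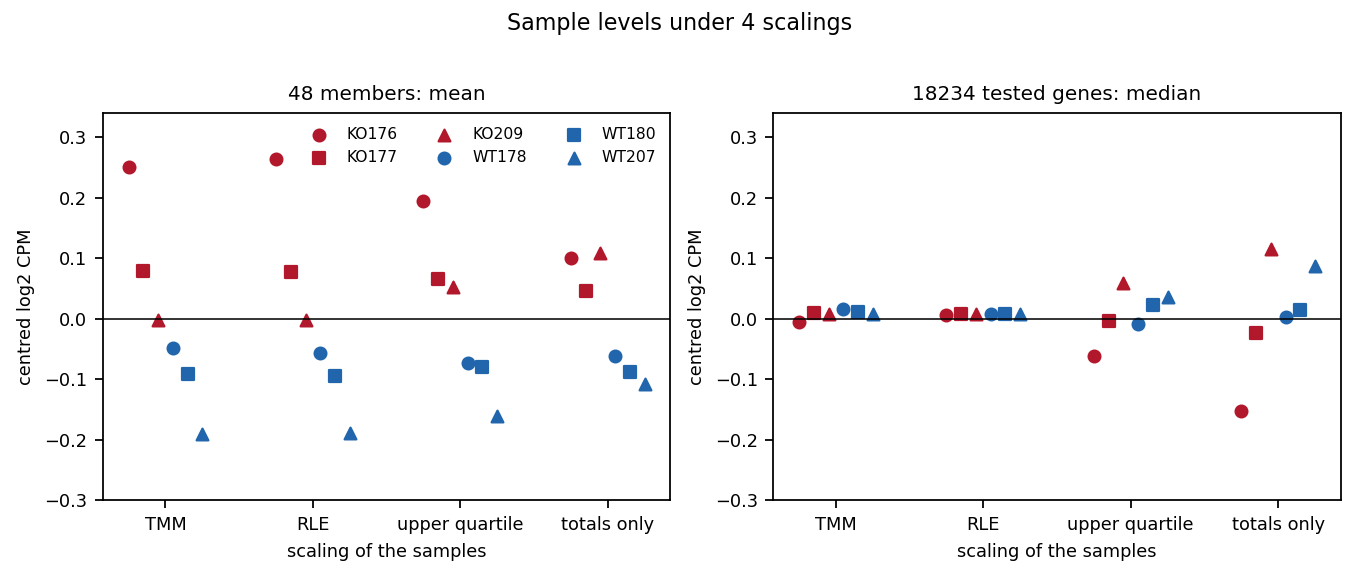
Centred log2 CPM of the 6 samples (vertical axes; red KO, blue WT) under 4 scalings (horizontal axes), as the mean of the 48 genes on the left and the median of all 18234 tested genes on the right. Under each scaling the KO samples lie above the WT samples on the left, with KO176 at 0.25 under TMM and at 0.10 with totals only.

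KO176, KO177, WT178 and WT180 carry neighbouring numbers and WT207 and KO209 higher ones, and the labels do not say what these 2 ranges stand for. Within the lower range, 47 of the 48 genes were higher in *Ythdc1*Δ/Δ (48.7% of all genes), with a median log2 fold change of 0.23. KO209 exceeded WT207 in 40 of 48 genes (48.1% of all genes), with a median difference of 0.18 on the log2 scale and no replicate check. KO209 and WT207 are the only samples of the higher range, so whether the genotype difference changes with the range cannot be judged here. Among subgroups the 2 ranges gave unlike medians for Okazaki fragment enzymes (0.33 and 0.04), deoxynucleotide synthesis (0.28 and 0.07) and fork protection (0.21 and 0.46).

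The members' levels moved together over the 12 libraries to different degrees, which is given as a description because libraries share their sample and its scaling. The correlation of a gene with the mean of the other 47 ran from -0.00447 for *Pola1* to 0.97 for *Dbf4*, with a median of 0.759, and exceeded 0.5 in 35 genes. *Rrm2* (0.933), *Orc2* (0.945), *Rfc4* (0.931) and *Gmnn* (0.918) were also high, while *Rfc1* (-0.00216), *Orc5* (0.109) and *Clspn* (0.111) were low. The 10 members with E2F letters in their window had a median log2 fold change of 0.19 and the 28 with a window but without the letters 0.20. At an unadjusted p under 0.05 in edgeR, 1 of the 10 and 9 of the 28 were higher, against 4.28% of all tested genes. The 28 can hold close variants of the letters, and a link of E2F sites to these changes was not tested.

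Related genes were described from lists of the same pathways. For comparison, 48.9% of all tested genes were higher in *Ythdc1*Δ/Δ, and 4.28% were higher at an unadjusted p under 0.05 in edgeR. Of the genes at 10 CPM or more, 56.4% were higher. Origin licensing genes were higher in 8 of 8 cases (median 0.24 on the log2 scale), and *Mcm4*, a helicase subunit, had the smallest p (0.38, adjusted p = 0.302 in edgeR), with 1 of 8 at an unadjusted p under 0.05. Of 22 other replication genes 18 were higher, 7 of them at that p, led by *Mcm10* (0.54), which helps to activate the helicase, *Pclaf* (0.60), which encodes a PCNA partner, and *Mcm8* (0.35). Of 16 other nucleotide synthesis genes 11 were higher, 5 of them at that p, led by the salvage kinase gene *Dck* (0.45), *Cad* (0.43), which starts pyrimidine synthesis, and *Shmt1* (0.38) of folate metabolism. All 6 other histone chaperones of replication were higher, led by *Nasp* (0.32). Of 13 E2F and RB family genes 8 were higher and 5 lower, with *E2f8* (0.54), *E2f2* (0.48) and *Tfdp1* (0.47) at the smallest p. *E2f5* came next and was lower (-0.34), with every *Ythdc1*Δ/Δ sample below every *Ythdc1*+/+ sample. Of 10 S phase checkpoint genes 9 were higher, 7 with library totals alone, and *Rad17* led (0.25). Mitotic genes were higher in 24 of 25 cases, 13 of them at an unadjusted p under 0.05, led by the spindle checkpoint kinase genes *Ttk* (0.49) and *Bub1b* (0.45) and by *Ccna2* (0.46), cyclin A2. G1 cyclins, kinases and inhibitors were split 6 to 5, or 5 to 6 with library totals alone, and *Ccnd1*, cyclin D1, was at 0.92 on the log2 scale (adjusted p = 0.298 in edgeR). No gene of these lists passed an adjusted p of 0.05. By qPCR in long-term HSCs, another measure, the paper reports *Mcm4* as unchanged and *Ccnd1* as significantly higher without *Ythdc1*. Its gene set analysis of the RNA sequencing reports genes of cell division and DNA replication as upregulated.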

How the data were processed

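Counts per gene were taken from the table that the authors deposited. Per the file headers and the submitters' notes, the authors counted read pairs with featureCounts 2.0.1 over GENCODE vM23 exons of mm10, without regard to strand, and the counts were not normalized. The aligner is given in the methods as Hisat2. The exon length column that the authors deposited with the counts (another unit, in bases) was used for TPM, which was not scaled by TMM. All 48 members and the other lists were chosen with earlier results of these data known, so no list is independent evidence.

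The 2 libraries of a title number were summed, giving 3 samples per genotype. The test was that of edgeR 4.0.16 in R 4.3.3 (robust quasi-likelihood fit, legacy option off) after filterByExpr (minimum count 10, minimum total 15) and TMM scaling, with Benjamini-Hochberg adjustment over 18234 genes. Positive log2 fold changes mean a higher level in *Ythdc1*Δ/Δ, standard errors follow from the F statistic, and log2 CPM used a prior count of 2. Values by sample are given for the members with the smallest and largest p of each subgroup and for all at an unadjusted p under 0.05. Of 55335 identifiers 55154 had a symbol. Alternatives included DESeq2 1.42.0 and voomLmFit of limma 3.58.1. The steps were tested on simulated data whose changes were larger than that of any member, so the simulation does not show how well changes of the members' size are found. Figures used Python 3.11.15 and matplotlib 3.10.9. Promoter positions refer to RefSeq windows on GRCm38.p6, which is mm10.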

Additional observations from a re-analysis of the deposited data

How the results depend on the processing

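Over 19 alternative settings, 3 of them chosen after seeing the data (KO176, KO177, WT178 and WT180 only, without KO176 and WT180, and no scaling beyond totals), 42 to 48 of the 48 members were higher in *Ythdc1*Δ/Δ and their median log2 fold change was 0.14 to 0.28. The number of genes called over the whole table moved far more. It was 25 in the fit reported, 751 with the 12 libraries as separate samples, 88 with a term for the range of title numbers, 16 with upper quartile scaling, 221 with DESeq2, 15 with edgeR's legacy option, 143 with voomLmFit and the title number as a random block, 73 without a filter, 1 with at least 10 CPM in 3 samples, 14 without KO176 and WT180, 15 with no scaling beyond totals, and 1 to 81 when a sample was left out in turn, lowest without WT178 and highest without KO209. Of the members 10 were called with separate libraries and 1 with DESeq2, and otherwise 0 outside the replicate block. With the digit after the title number as a replicate block on the 12 libraries, 729 genes (4.49%) and 8 members were called. Libraries with the same digit did not all deviate together across genotypes (correlation -0.217 to 0.315, median 0.059, against a median of -0.0445 for unlike digits), so the digit was not taken as a pairing. The digits were still not alike: 9 members (18.8%, against 8.64% of all genes) differed in 1 direction between the digits in all 6 numbers, *Orc5* and *Pola1* higher in library 2 and *Gins1*, *Gins2*, *Gmnn*, *Pold2*, *Rnaseh2b*, *Tk1* and *Dut* higher in library 1. Leaving out samples in turn turned the sign of 8 members, whose log2 fold changes then ran from -0.12 (without WT180) to 0.14 (without WT178) for *Orc5*, -0.031 (without KO176) to 0.52 (without KO209) for *Ccne1*, -0.039 (without KO176) to 0.12 (without KO209) for *Pole2*, -0.00052 (without KO176) to 0.35 (without KO209) for *Fen1*, -0.0029 (without WT180) to 0.10 (without WT178) for *Pola2*, -0.050 (without WT207) to 0.093 (without KO209) for *Rfc2*, -0.091 (without WT207) to 0.041 (without KO209) for *Chaf1b* and -0.029 (without WT178) to 0.19 (without WT180) for *Clspn*. *Orc5* was at 0.0034 with voomLmFit and at 0.0138 in KO176, KO177, WT178 and WT180 alone. Without KO176 and WT180, *Pola2* was at -0.00035, *Prim2* at -0.0019, *Pole2* at -0.064 and *Fen1* at -0.087, and with no scaling beyond totals *Pola2* was at -0.0037, *Pole2* at -0.018 and *Rfc2* at -0.012. The cause of these shifts was not tested. Every member held at least 477 counts in each summed sample.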

Other observations

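The 10 other genes whose log2 CPM over the 12 libraries was most like the mean of the 48 members were *Ccnb1* (r = 0.987), *Oip5* (0.964), *Timm8a1* (0.963), *Umps* (0.96), *Gas7* (0.957), *Shmt1* (0.956), *Lgmn* (0.955), *Cyp4f18* (0.954), *Recql* (0.954) and *Slc35b1* (0.952). The libraries share samples and scaling, so these values are a description. The mean of the 48 members was itself highest in KO176 and lowest in WT207, with the genotypes apart. The sample order, lack of overlap and direction of genes picked for likeness to it are therefore largely set by that choice. Of all tested genes, 7.75% were higher in *Ythdc1*Δ/Δ without overlap. *Ccnb1*, the mitotic cyclin B1, was at 306, 237 and 210.5 CPM in KO176, KO177 and KO209 and at 205, 189 and 160.1 CPM in WT178, WT180 and WT207, and its groups did not overlap. *Umps*, the last enzyme of UMP synthesis, was at 358, 311 and 292 CPM against 286, 269 and 228 CPM in the same order, also without overlap. *Shmt1*, of folate metabolism, was at 193, 175 and 142 CPM against 143, 130.2 and 120.4 CPM, and KO209 and WT178 crossed. The largest log2 fold changes of the 10 were those of *Gas7* (0.98), *Cyp4f18* (0.98) and *Lgmn* (0.95). In each of them KO176 was highest, WT207 was lowest and the groups did not overlap. *Cyp4f18* was at 12.7, 6.86 and 5.01 CPM against 4.61, 4.98 and 2.84 CPM in the same order. Whether the likeness reflects the cell cycle or other cell types was not tested. No gene of the 10 passed an adjusted p of 0.05 in edgeR's quasi-likelihood test.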
